A study of Mus musculus with 6 samples.

Results

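The 48 genes described here carry and regulate canonical Wnt signalling, and they were read in handpads, the paddle-shaped ends of the embryonic forelimbs, of C57BL/6 mice at stage E14.5 (embryonic day). They were chosen by name: 13 Wnt ligands, 11 frizzled and Lrp receptors, 7 R-spondins and Lgr receptors, 11 secreted inhibitors, and 6 effectors and target genes, out of 34989 genes with values. Earlier results of these data were known when the list was chosen. The groups were 3 wild-type samples and 3 samples labelled as knockout of Grhl3, which encodes a transcription factor of the grainyhead family that acts in skin. By its title, the study is about how the digits come apart and what moving epithelium and periderm, the skin's outer embryonic cover, contribute. Nothing in the labels says which part of Grhl3 was deleted, which sex the embryos had, or whether a sample was 1 embryo or a pool. The p-values therefore rest on sample-to-sample spread, part of which may be technical.

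Wnt ligands are secreted lipid-modified proteins that bind a frizzled receptor together with the co-receptor Lrp5 or Lrp6. Binding stops the destruction of beta-catenin, which then enters the nucleus and activates target genes with the Tcf and Lef factors. R-spondins and their Lgr receptors raise the amount of frizzled at the cell surface, whereas Dkk, Sfrp, Wif1 and Notum act outside the cell to limit the signal. In the embryonic limb the ligands of the surface ectoderm act on the skin itself and on the mesenchyme beneath it, and Wnt antagonists mark cartilage, joints and interdigital tissue.

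The libraries held 38052692 to 56037639 estimated counts. Grhl3 measured 14.3, 45.7 and 18.5 CPM (counts scaled by library size) in wild-type and 3.11, 2.86 and 2.95 CPM in knockout libraries. Counts of wild-type replicate 1 fell on shorter transcripts, 3148 bases on average, while the other 5 libraries averaged between 3347 and 3625 bases. Y-linked genes were expressed in wild-type replicates 2 and 3, with a summed level of 150 and 173 TPM, and lay between 1.15 and 1.96 TPM in wild-type replicate 1 and the knockout libraries. Genotype and embryo sex are thus partly confounded in every comparison below. All 12 genes of a pan-epithelial list, 12 of a chondrocyte list and 12 of a limb mesenchyme list were detected. Of 8 listed liver and yolk sac genes, 6 were tested, and 5 were higher in the knockout at an unadjusted p under 0.05 (edgeR). The summed level of the 8 was 8.54 to 19.6 TPM in wild-type and 20.1 to 87.1 TPM in knockout libraries. The part of other cells in the results below was not tested.

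Of the 48 members, 0 passed an adjusted p of 0.05 with the edgeR quasi-likelihood test, where 0.431% of the 16938 tested genes did. All 48 passed the filter on low counts. At an unadjusted p under 0.05, 5 members were higher in the knockout and 2 lower, 14.6% of the list against 7.22% of all genes tested (3.81% higher and 3.41% lower). The 5 higher ones were the ligands Wnt10a, Wnt10b and Wnt3, the receptor Fzd10 and the R-spondin receptor Lgr6. The 2 lower ones were the receptor Fzd9 and the secreted antagonist Frzb. The list was chosen with earlier results of these data known, so its share beside that of all genes is only a description. In edgeR without wild-type replicate 2 the counts were 10 higher and 3 lower. Without knockout replicate 3 they were 3 higher and 2 lower. DESeq2 and the edgeR likelihood ratio test each called Wnt10a and Wnt10b, where they called 1.58% and 1.54% of all genes they tested, and limma-voom called 0 members. The authors' deposited table lists 6 members among its 941 genes, and gives a false discovery rate under 0.05 for 2 of them, Wnt10b (0.00612) and Wnt10a (0.0078). The other 4 listed there were Wnt3 (log2 fold change 0.54), Lgr6 (0.44), Fzd9 (-0.39) and Frzb (-0.70) in the authors' deposited table, with false discovery rates of 0.232 to 0.309. The median log2 fold change of the members was 0.006, against -0.004 over all genes tested, and 24 members had positive and 24 negative values.

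The levels of the members per transcript length spanned a wide range, given here as TPM (a transcript share corrected for length), averaged over the 6 libraries. Ctnnb1, the gene of beta-catenin, was the highest at 783 TPM and ran from 704 to 854 TPM. Its TPM is uncertain, since its 3623-base transcript held from 36.5% to 85.2% of its counts, and from 15.4% to 57.2% of its TPM, depending on the library. The inhibitor Sfrp2 followed at 96.6 TPM, the receptor Fzd2 at 61.1 TPM and the inhibitor Dkk2 at 59.9 TPM. Fzd2 and Dkk2 overlapped in range, and Sfrp2 lay above both in every library. In all, 25 members averaged above 10 TPM. Only Sfrp4 (0.915 TPM), Wnt9b (0.892 TPM) and Rspo4 (0.482 TPM) averaged below 1 TPM. From the highest member to the lowest, 43 of the 47 neighbouring pairs overlapped in range, so most of the order is not resolved.

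**Figure D1:**
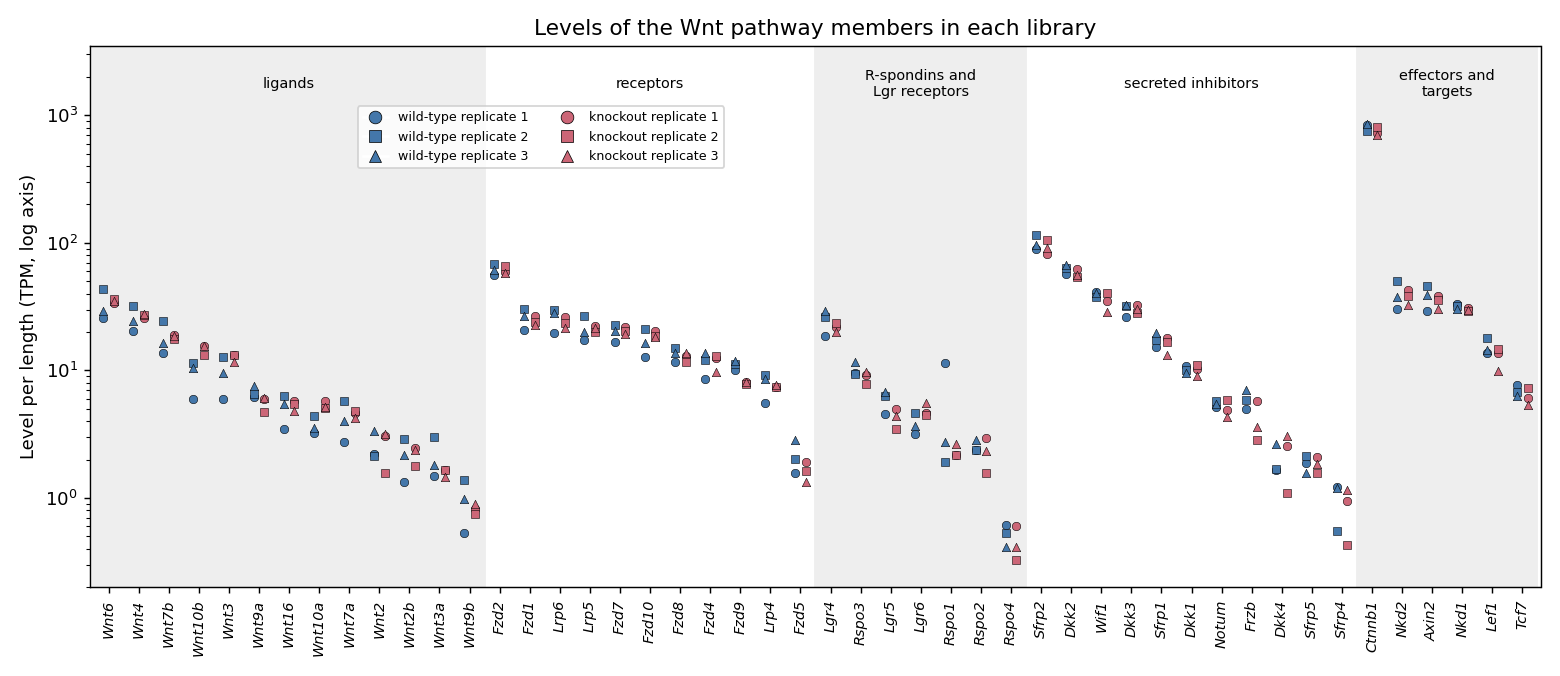
Level of each of the 48 members in TPM (log axis) in each of the 6 libraries, grouped by role and ordered by mean level, with wild-type points on the left and knockout points on the right of each gene. Ctnnb1 lies far above the rest, and Rspo1 shows wild-type replicate 1 at 11.4 TPM, above the other 5 libraries.

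Among the ligands, Wnt6, Wnt4 and Wnt7b were the most abundant, and all are known from embryonic surface ectoderm. They averaged 33.9, 26.2 and 18.3 TPM and together made up 57.3% to 64.5% of the summed TPM of the 13 ligands in any library. Next came Wnt10b at 12.02 TPM and Wnt3 at 11.04 TPM. Wnt9a (6.16 TPM), known from joint-forming tissue, Wnt16 (5.21 TPM), Wnt10a (4.51 TPM) and Wnt7a (4.38 TPM), the ligand of dorsal limb ectoderm, were lower. Wnt2, Wnt2b and Wnt3a lay between 1.84 and 2.59 TPM. The levels of the most abundant ligands did not separate the genotypes. Wnt6 measured 40.9, 56.1 and 38.4 CPM in wild-type handpads and 48.4, 54.4 and 51.6 CPM in knockout handpads. Its log2 fold change was 0.19 (SE 0.15, 95% interval -0.14 to 0.52, adjusted p = 0.918, edgeR quasi-likelihood test). With 1 library left out it ran from 0.079 to 0.378, lowest without wild-type replicate 3 and highest without wild-type replicate 2. Wnt4 measured 85.6, 106 and 81.6 CPM against 95.5, 102 and 108 CPM, a log2 fold change of 0.16 (SE 0.12, interval -0.10 to 0.43, adjusted p = 0.901, edgeR) that ran from 0.083 to 0.287 without the same libraries. Wnt7b measured 45.4, 63.8 and 43.04 CPM against 54.8, 51.8 and 57.4 CPM, a log2 fold change of 0.11 (SE 0.15, interval -0.24 to 0.45, adjusted p = 0.979, edgeR). Moderate changes in any of the 3 lie within the error.

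Wnt10a and Wnt10b, a pair of closely related ligands that act early in hair follicle, tooth and footpad development, were higher in each knockout library than in any wild-type library. Wnt10a (ENSMUSG00000026167.14, chromosome 1, 74791516 to 74804179, mm10) measured 6.00, 6.64 and 6.43 CPM in wild-type handpads and 11.4, 9.56 and 10.9 CPM in knockout handpads. In CPM the wild-type values lay close together, and the lowest knockout value was well above them. In TPM they were 3.23, 4.41 and 3.54 in wild-type and 5.72, 5.06 and 5.12 in knockout handpads. In the fit the log2 fold change was 0.74 (SE 0.14, 95% interval 0.43 to 1.05, unadjusted p = 0.0005, adjusted p = 0.083, edgeR quasi-likelihood test). With length offsets it was 0.58 (adjusted p = 0.351, edgeR), the lowest over the alternatives. Wnt10b (ENSMUSG00000022996.15, chromosome 15, 98770712 to 98778150) measured 14.3, 20.96 and 19.4 CPM against 31.6, 27.3 and 33.2 CPM. Its groups were also separate, with wild-type replicate 1 the lowest. On the log2 scale the difference was 0.75 (SE 0.16, interval 0.40 to 1.11, adjusted p = 0.129, edgeR quasi-likelihood test). Neither passed the threshold, and over the alternatives the adjusted p of Wnt10a ran from 0.00032 to 0.385 and that of Wnt10b from 0.0014 to 0.511. Wnt10b passed without wild-type replicate 1 (log2 fold change 0.61, adjusted p = 0.0443, edgeR), a fit in which the wild-type libraries left all had Y-linked expression, so that genotype and embryo sex cannot be told apart. It also passed with Y-linked expression as a term in the fit, at a log2 fold change of 1.13 (adjusted p = 0.0404, edgeR). In that fit wild-type replicate 1 is the only wild-type library with Y-linked expression as low as in the knockouts, so the genotype estimate leans on it.

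The Wnt10b transcript with the most counts, 2709 bases long, held 63.0% to 80.1% of them and was separate by itself, at 4.49, 6.85 and 6.24 TPM in wild-type handpads and 9.50, 8.002 and 8.76 TPM in knockout handpads.

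Wnt3, a ligand of limb ectoderm, was the other ligand with separate groups. Wnt3 (ENSMUSG00000000125.5, chromosome 11, 103774150 to 103817957) measured 17.7, 29.5 and 22.4 CPM in wild-type handpads and 34.4, 34.8 and 32.3 CPM in knockout handpads. The knockout values were tight, and wild-type replicate 2 came near them. Its log2 fold change was 0.54 (SE 0.17, interval 0.15 to 0.93, adjusted p = 0.417, edgeR quasi-likelihood test). Over the alternatives it ran from 0.38 to 0.96, the latter with the Y-linked term (adjusted p = 0.0916, edgeR). As a description, since these 3 ligands were chosen for their higher knockout values, Wnt10a, Wnt10b and Wnt3 together took 16.3%, 18.3% and 19.8% of the ligand TPM in wild-type handpads and 25.0%, 23.6% and 23.6% in knockout handpads. The other 10 ligands had overlapping groups and log2 fold changes from -0.30 (Wnt3a) to 0.23 (Wnt7a). Over all genes tested, groups did not overlap in 12.9%, with the knockout higher in 6.77% and lower in 6.16%.

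**Figure D2:**
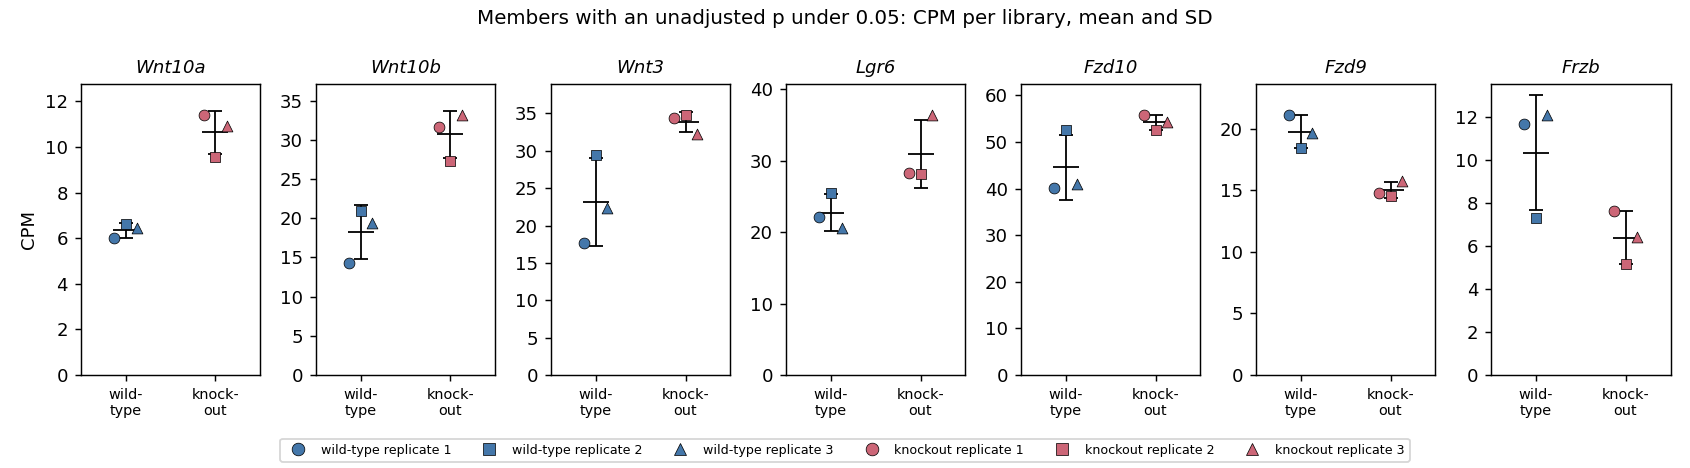
CPM in each library for the 7 members with an unadjusted p under 0.05, with the mean and SD of each genotype (n = 3 libraries). Wnt10a, Wnt10b, Wnt3 and Lgr6 were higher in each knockout library and Fzd9 lower in each, while Fzd10 and Frzb overlapped through wild-type replicate 2.

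Part of the pan-epithelial list was higher in the knockout alongside these ligands: 9 of the 12 markers had positive and 3 negative log2 fold changes, from -0.45 to 1.27. At an unadjusted p under 0.05 the knockout had more of 6 of the 12 markers and less of 0, and 1, the claudin gene Cldn7, passed the adjusted threshold (edgeR). Their summed level was 668 to 1307 TPM in wild-type handpads and 1341 to 1877 TPM in knockout handpads, and no marker was at 0. Averaged over the list as log2 CPM, wild-type replicates 1 to 3 stood at 5.05, 5.68 and 5.14, and the knockouts at 5.90, 5.63 and 5.82. On this average wild-type replicate 2 thus overlapped the knockouts. Taken singly, 6 of the 12 markers had groups that did not overlap, all higher in the knockout, against 6.77% of all genes tested. Other lists shifted too. Their mean log2 CPM, knockout minus wild-type, differed by 0.21 for endothelial, 0.39 for erythroid, and 0.32 for Schwann cell and melanoblast genes. It differed by 0.03 for limb mesenchyme, -0.09 for skeletal muscle and -0.55 for chondrocyte genes. In bulk tissue, more cells of a type and more RNA per cell cannot be told apart, and the part of epithelial content in the ligand values was not tested. Of the 13 ligands, 11 had their highest wild-type value in wild-type replicate 2, as did 11 of the 12 pan-epithelial markers, against 28.3% of all genes tested. The same library was the highest for 9 of the 12 chondrocyte markers, 7 of the 11 receptors, and 5 of 8 genes each of an erythroid and a macrophage list. In other lists it was seldom the highest: 1 of the 11 secreted inhibitors, and 1 of the 7 R-spondins and Lgr receptors. The same held for 1 of 8 Schwann cell and melanoblast genes and 0 of 8 skeletal muscle genes.

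Set against the pan-epithelial list library by library, the difference between the genotypes was smaller for all 3 ligands. This step takes the same amount from every gene, since the mean log2 CPM of the list was 0.49 higher in the knockout. The smaller differences are therefore built in, and the part of epithelial content was not tested. Wnt10b minus the mean of the list, in log2 CPM, was -1.20, -1.29 and -0.86 in wild-type handpads and -0.91, -0.86 and -0.76 in knockout handpads. The groups then overlapped, with a difference of 0.27. Wnt10a minus the list was -2.45, -2.94 and -2.44 in wild-type handpads and -2.38, -2.37 and -2.36 in knockout handpads, a difference of 0.24 whose groups did not overlap, by a narrow gap. For Wnt3 the difference was 0.08 (mean -0.78 ± 0.12 in wild-type and -0.70 ± 0.17 in knockout libraries, SD, n = 3), and the groups overlapped. The mean of the chondrocyte list was 0.55 lower in the knockout, so differences against it grow by that amount. They were 1.29 for Wnt10a, 1.32 for Wnt10b and 1.13 for Wnt3, with separate groups. The pair of libraries with nearly equal epithelial marker levels, wild-type replicate 2 and knockout replicate 2, held 6.64 and 9.56 CPM of Wnt10a, and 20.96 and 27.3 CPM of Wnt10b. They held 29.5 and 34.8 CPM of Wnt3. This is 1 library per genotype, and all knockout values of these 3 genes lay above all wild-type values. Any such pair would therefore show the knockout higher, so the pair is only a description.

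**Figure D3:**
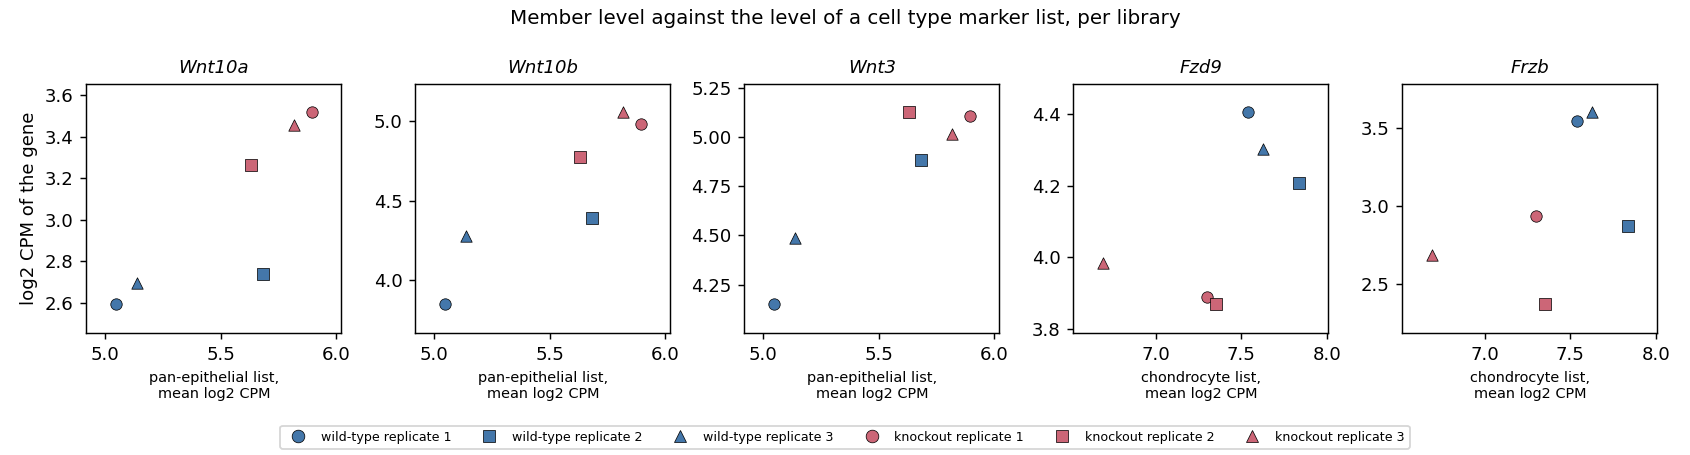
Level of 5 members (log2 CPM) against the mean log2 CPM of the pan-epithelial list (Wnt10a, Wnt10b, Wnt3) or of the chondrocyte list (Fzd9, Frzb), 1 point per library. Wild-type replicate 2 lies within the knockout range of the epithelial list. Its Wnt10a, Wnt10b and Wnt3 values, like those of every wild-type library, are below those of the knockout libraries. The chondrocyte list is lower in all 3 knockout libraries.

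The receptors were led by Fzd2 at 61.1 TPM, followed by Fzd1 (25.2 TPM), the co-receptors Lrp6 (24.8 TPM) and Lrp5 (21.3 TPM), and Fzd7 (20.2 TPM). Fzd10 (17.9 TPM), Fzd8 (13.1 TPM), Fzd4 (11.6 TPM), Fzd9 (9.53 TPM) and Lrp4 (7.67 TPM), a receptor that binds Wnt antagonists, came next, and Fzd5 was low at 1.88 TPM. The abundant receptors differed little between the genotypes. Fzd2 measured 201, 194 and 176 CPM in wild-type handpads and 185, 211 and 195 CPM in knockout handpads (log2 fold change 0.05, SE 0.10, 95% interval -0.18 to 0.28, adjusted p = 0.99, edgeR). Fzd1 measured 87.03, 99.8 and 89.6 CPM against 99.1, 90.2 and 89.6 CPM (log2 fold change 0.01, SE 0.09, interval -0.19 to 0.22, adjusted p = 1, edgeR). Lrp6 measured 158, 192 and 192 CPM against 198, 163 and 168 CPM (log2 fold change -0.04, SE 0.12, interval -0.31 to 0.24, adjusted p = 0.994, edgeR). These intervals exclude a doubling or a loss of most of the transcript, not a modest change.

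Fzd9, a frizzled receptor also known from bone-forming cells, had the lowest fold change among the receptors. Fzd9 (ENSMUSG00000049551.2, chromosome 5, 135248938 to 135251230) measured 21.1, 18.4 and 19.7 CPM in wild-type handpads and 14.8, 14.6 and 15.8 CPM in knockout handpads. All knockout values lay below all wild-type values, and both groups were tight. In the fit the log2 fold change was -0.39 (SE 0.11, interval -0.64 to -0.15, adjusted p = 0.307, edgeR quasi-likelihood test). Fzd10 (ENSMUSG00000081683.5, chromosome 5, 128600844 to 128604093) measured 40.04, 52.62 and 40.9 CPM against 55.8, 52.57 and 54.3 CPM. Wild-type replicate 2 reached the lowest knockout value, as it did for the mean log2 CPM of the pan-epithelial list. On the log2 scale the difference was 0.28 (SE 0.12, interval 0.01 to 0.56, adjusted p = 0.664, edgeR quasi-likelihood test), with 0.44 under the Y-linked term, and against the pan-epithelial list the difference turned to -0.20 with overlapping groups. Fzd7 had separate groups with a small difference, 74.2 to 81.4 CPM in wild-type and 82.6 to 87.3 CPM in knockout libraries (log2 fold change 0.13, adjusted p = 0.874, edgeR).

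Among the R-spondins and their receptors, Lgr4 was the most abundant at 23.3 TPM, and Rspo3 led the R-spondins at 9.55 TPM. Lgr4 measured 94.1, 102 and 115 CPM in wild-type handpads and 94.4, 104 and 91.7 CPM in knockout handpads (log2 fold change -0.10, SE 0.10, interval -0.33 to 0.13, adjusted p = 0.957, edgeR). Rspo3 measured 28.1, 21.5 and 27.3 CPM against 23.5, 20.9 and 26.6 CPM (log2 fold change -0.12, SE 0.14, interval -0.44 to 0.20, adjusted p = 0.967, edgeR). The groups of both overlapped. The other receptors went opposite ways. Lgr6, a marker of epithelial stem cells in later skin (ENSMUSG00000042793.13, chromosome 1, 134983301 to 135105276), measured 22.1, 25.5 and 20.5 CPM in wild-type handpads and 28.3, 28.1 and 36.4 CPM in knockout handpads. The groups did not overlap, and knockout replicate 3 was the highest. Its log2 fold change was 0.44 (SE 0.14, interval 0.13 to 0.76, adjusted p = 0.415, edgeR quasi-likelihood test). Relative to the pan-epithelial list the difference was -0.055, with overlapping groups. Lgr5, a Wnt target in many tissues, measured 20.9, 19.5 and 25.1 CPM against 19.2, 14.4 and 18.5 CPM. Its groups were separated by less than 1 CPM, and its log2 fold change was -0.33 (SE 0.15, interval -0.68 to 0.01, adjusted p = 0.706, edgeR quasi-likelihood test), and -0.22 without knockout replicate 2. Whether the fold changes of Lgr5 and Lgr6 differ from each other was not tested.

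Rspo1 showed how much 1 library can weigh. It measured 6.60, 2.39 and 3.47 CPM in wild-type handpads and 2.98, 3.08 and 3.89 CPM in knockout handpads, so wild-type replicate 1 stood above the rest. In TPM that library held 11.4, against 1.93 to 2.77 TPM in the other 5, and 7.55 TPM of it came from a 446-base transcript at 0 in all other libraries. Rspo2, an R-spondin of the limb's apical ridge, averaged 2.40 TPM with overlapping groups, and Rspo4, known from nail development, had 28 to 56 counts per library.

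Of the 11 secreted inhibitors, Sfrp2, Dkk2 and Wif1 were the most abundant in summed TPM, and their groups overlapped. The third place is uncertain, since the 2294-base Wif1 transcript held only 33.5% to 78.5% of the Wif1 TPM. Alone it ran from 13.9 to 29.7 TPM, below Dkk3 (26.3 to 32.6 TPM) in every library. Sfrp2, which binds Wnt proteins, measured 156, 140 and 121 CPM in wild-type handpads and 115, 152 and 139 CPM in knockout handpads (log2 fold change -0.04, SE 0.14, interval -0.35 to 0.27, adjusted p = 0.994, edgeR). Dkk2, which binds Lrp5 and Lrp6, measured 210, 182 and 195 CPM against 199, 178 and 191 CPM (log2 fold change -0.05, SE 0.10, interval -0.28 to 0.18, adjusted p = 0.991, edgeR). Wif1, a Wnt-binding protein, measured 62.9, 56.7 and 55.9 CPM against 57.0, 61.6 and 44.9 CPM (log2 fold change -0.10, SE 0.13, interval -0.39 to 0.19, adjusted p = 0.967, edgeR). These 3 intervals all span 0. Dkk3 (30.4 TPM), a divergent Dkk protein, Sfrp1 (16.7 TPM), Dkk1 (10.2 TPM), Dkk4 (2.12 TPM), Sfrp5 (1.85 TPM) and Sfrp4 overlapped as well. Notum, an enzyme that removes the lipid from Wnt proteins, measured 6.68 to 7.50 CPM in wild-type and 5.95 to 6.63 CPM in knockout libraries. That separation was small, at a log2 fold change of -0.18 (interval -0.50 to 0.14, adjusted p = 0.923, edgeR) and -0.059 with length offsets, and exons of antisense genes cover 29.4% and 8.7% of the Notum exons.

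Frzb, a secreted frizzled-related antagonist first known from cartilage, had the lowest fold change of all 48 members. Frzb (ENSMUSG00000027004.3, chromosome 2, 80411970 to 80447625) measured 11.6, 7.28 and 12.1 CPM in wild-type handpads and 7.61, 5.14 and 6.41 CPM in knockout handpads. Wild-type replicate 2 lay below knockout replicate 1, so the groups overlapped. In the fit the log2 fold change was -0.69 (SE 0.23, interval -1.22 to -0.17, adjusted p = 0.457, edgeR quasi-likelihood test). The Frzb transcript with the most counts, of 3149 bases, did not overlap in TPM, at 3.61, 2.56 and 4.64 TPM against 2.35, 1.72 and 2.01 TPM. Its estimated counts, not scaled by library size, were 305 in wild-type replicate 2 and 308 in knockout replicate 1. The separation is thus given for TPM only, a different unit from the CPM of the gene. Chondrocyte markers moved the same way: all 12 had negative fold changes, 5 at an unadjusted p under 0.05 and 0 past the adjusted threshold (edgeR). Their summed level was 1605 to 2402 TPM in wild-type handpads and 1007 to 1535 TPM in knockout handpads, and none was at 0. Frzb minus the mean log2 CPM of the chondrocyte list was -4.33 ± 0.55 in the wild-type and -4.45 ± 0.49 in knockout handpads (SD, n = 3), a difference of -0.12 within the spread, and the part of cartilage content was not tested. Fzd9 minus that list was -3.36 ± 0.25 and -3.20 ± 0.43 (SD, n = 3), with overlapping groups. Against the pan-epithelial list, in contrast, the differences were -0.88 for Fzd9 and -1.17 for Frzb, with separate groups. Both shifts are built in, as the chondrocyte mean was 0.55 lower and the pan-epithelial mean 0.49 higher in the knockout.

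None of the 6 effectors and target genes among the members separated the genotypes or reached an unadjusted p under 0.05. Further target genes outside the members are given below. Axin2, a feedback inhibitor that canonical Wnt signalling induces in most tissues, measured 84.7, 106 and 92.2 CPM in wild-type handpads and 94.0, 101 and 86.0 CPM in knockout handpads. The groups shared nearly the same range. On the log2 scale the difference was -0.01 (SE 0.11, interval -0.26 to 0.24, adjusted p = 1, edgeR quasi-likelihood test). The feedback inhibitors Nkd1 and Nkd2, which act on Dishevelled, had log2 fold changes of -0.04 (interval -0.32 to 0.23) and 0.10 (interval -0.18 to 0.37). Nkd2 measured 78.7, 83.4 and 71.5 CPM in wild-type handpads and 79.9, 96.9 and 73.2 CPM in knockout handpads (SE 0.12, adjusted p = 0.967, edgeR). Nkd1 measured 66.7, 53.0 and 49.0 CPM against 54.7, 52.9 and 56.03 CPM, with wild-type replicate 1 the highest. The transcription factors Lef1 and Tcf7, which bind beta-catenin and are targets themselves, had log2 fold changes of -0.14 (interval -0.45 to 0.18) and -0.12 (interval -0.57 to 0.34). The value of Tcf7 was the least stable of the 6, from -0.549 with the Y-linked term to 0.124 without wild-type replicate 1. Ctnnb1 measured 1273, 1387 and 1358 CPM in wild-type handpads and 1527, 1383 and 1254 CPM in knockout handpads (log2 fold change 0.05, SE 0.13, interval -0.25 to 0.35, adjusted p = 0.992, edgeR). A p that misses the threshold does not show that these genes were the same, and the intervals give the sizes of change that stay within the error.

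**Figure D4:**
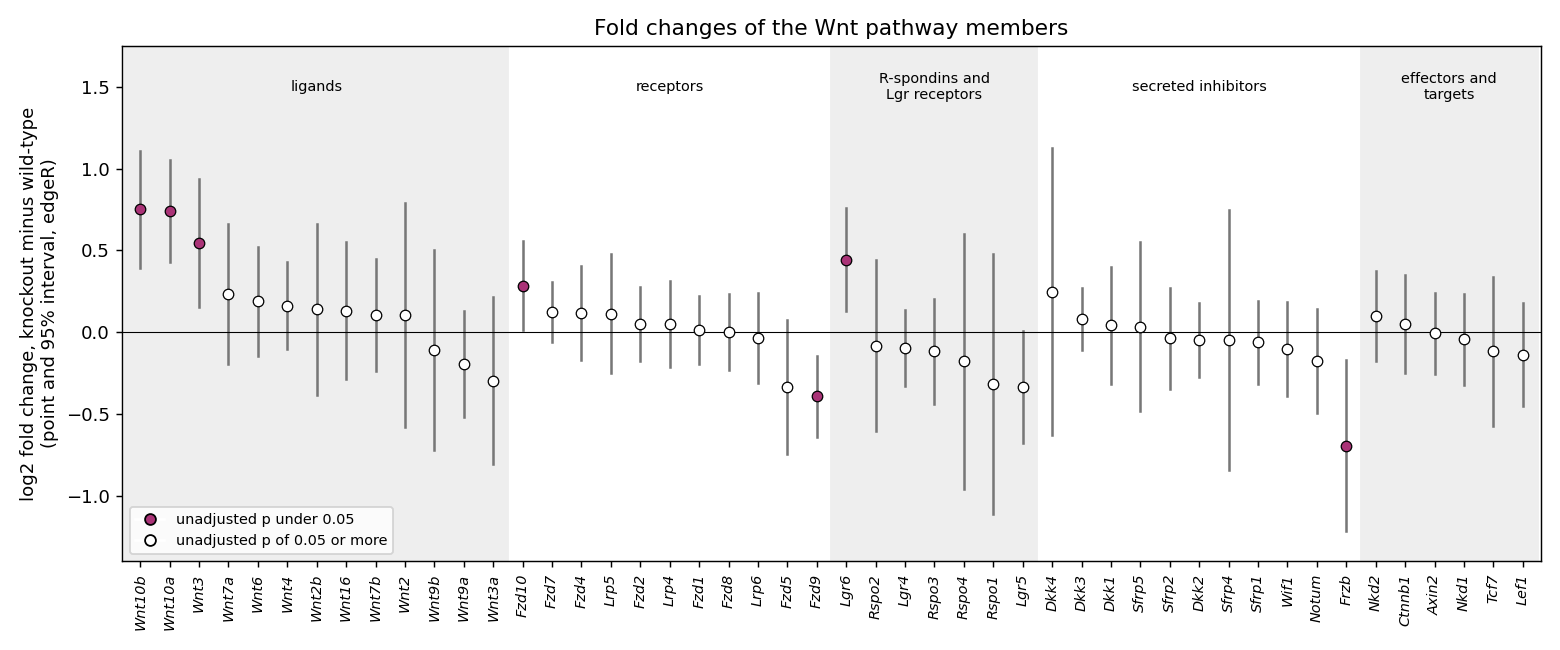
Fitted log2 fold change (knockout minus wild-type) and 95% interval from edgeR for the 48 members, grouped by role and ordered within each role, with filled points where the unadjusted p was under 0.05. Wnt10b, Wnt10a and Wnt3 lead the ligands at 0.75, 0.74 and 0.54, and the 6 effectors and targets lie between -0.14 and 0.10.

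The promoters of the members were read for the binding letters of the factors involved, in the 250 bases before the RefSeq start (GRCm38.p6), a window that 33 members had. The 8-base grainyhead site AACCGGTT, which reads the same on both strands, was in the promoters of 0.137% of 27025 genes and of 0 members. With any base at the fifth position (AACCNGTT, both strands, which includes the first site) it was in 1.998% of genes and 0 members. The Tcf and Lef core, searched on both strands as CTTTG followed by AA, AT, TA or TT, was in 16.8% of genes and in 3 members, Dkk1, Fzd7 and Lef1, or 9.09% of the 33. The matched Lef1 window (131156044 to 131156343) lies inside the gene, which spans 131110471 to 131224356 on chromosome 3. It is thus the window of an internal start. Dkk1 is a secreted inhibitor and a known target of the pathway. Its window holds this core at 2 places, so it is shown with that of Wnt10b, the ligand above. The annotated Dkk1 gene spans 30545863 to 30549665 on the minus strand, so part of its window lies inside the gene. Both matches, 117 and 98 bases before the RefSeq start, lie in that part. Capitals mark the core, and both sequences are on the minus strand, at chr19:30549497-30549746 for Dkk1 and chr15:98778151-98778400 for Wnt10b, which has 0 matches.
Dkk1: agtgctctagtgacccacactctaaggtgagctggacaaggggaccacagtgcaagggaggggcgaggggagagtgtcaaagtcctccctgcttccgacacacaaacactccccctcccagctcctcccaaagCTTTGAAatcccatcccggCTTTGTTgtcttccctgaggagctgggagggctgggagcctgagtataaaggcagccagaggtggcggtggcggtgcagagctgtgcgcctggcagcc
Wnt10b: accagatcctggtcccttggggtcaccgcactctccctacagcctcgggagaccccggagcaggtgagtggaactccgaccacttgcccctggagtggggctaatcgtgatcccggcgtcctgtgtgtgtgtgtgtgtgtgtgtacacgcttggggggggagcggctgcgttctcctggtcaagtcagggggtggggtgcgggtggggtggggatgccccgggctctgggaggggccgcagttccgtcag
Dkk1 measured 24.5, 17.9 and 16.9 CPM in wild-type handpads and 20.1, 22.01 and 18.8 CPM in knockout handpads, with wild-type replicate 1 the highest and overlapping groups. A match in this window is a description of its letters, and the absence of 1 says nothing about binding elsewhere.

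Of 55 further genes of the pathway, 52 were tested and 0 passed the adjusted threshold (edgeR quasi-likelihood test), with 3 higher and 1 lower at an unadjusted p under 0.05, or 7.69% against 7.22% of all genes. DESeq2 and the likelihood ratio test each called 1 of them higher, Fzd6, as did edgeR without wild-type replicate 1 (adjusted p = 0.0301) and with the Y-linked term (log2 fold change 1.11, adjusted p = 0.0295). The limits given for Wnt10b in those edgeR fits hold for Fzd6 too. This frizzled receptor, best known from planar cell polarity, measured 17.9, 24.6 and 26.5 CPM in wild-type handpads and 40.1, 36.9 and 36.4 CPM in knockout handpads. The groups were clearly separate. The log2 difference was 0.72 (adjusted p = 0.128 with edgeR and 0.00151 to 0.526 over the alternatives, SE 0.15). The others were Rnf43, a ubiquitin ligase that removes frizzled from the surface (log2 fold change 0.51, adjusted p = 0.372, edgeR), and Myc, a growth regulator (0.38, adjusted p = 0.481, edgeR). Tle2, a corepressor that binds Tcf factors, was the lower one (-0.54, adjusted p = 0.436, edgeR). All 4 had groups that did not overlap, and in the whole list 7 of the 52 did (5 higher and 2 lower), where 12.9% of all genes tested did. With the Y-linked term the log2 fold change was 0.82 for Rnf43, 0.19 for Myc and -0.19 for Tle2, and with length offsets it was -0.81 for Tle2, none of them past the threshold (edgeR). The list held 8 further target genes of the pathway: Sp5, Myc, Ccnd1, Cd44, Tnfrsf19, Bambi, Rnf43 and Znrf3. Of these, 6 had positive and 2 negative log2 fold changes, with 2 (25%), Myc and Rnf43, at an unadjusted p under 0.05. Groups were separate in 3, all higher in the knockout, the third being Tnfrsf19 (log2 fold change 0.29, adjusted p = 0.713, edgeR). The 19 genes of the destruction complex and its relay, such as Apc, Axin1, Gsk3b and the Dishevelled genes, had log2 fold changes between -0.18 and 0.08. Porcn and Wls, which modify and export Wnt proteins, had values of -0.05 and 0.10. Wnt1, Wnt8a and Wnt8b did not pass the filter on low counts.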

How the data were processed

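Per the submitters' processing notes, reads were processed with FastQC and kallisto against mm10, and their versions and the reference transcripts are not given here. Per the file headers, the deposited transcript tables give length, effective length, estimated counts, which are not normalized, and TPM, a length-corrected share. The authors' deposited table gives a log2 fold change, log2 CPM, likelihood ratio score, p-value and FDR per gene, up to a p-value of 0.0506, per the file headers.

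Of 111462 transcripts, 110203 matched GENCODE M21 by unversioned identifier, and the rest held 0.504% to 0.566% of counts. Estimated counts and TPM were summed per gene, and counts were rounded. Knockout was compared with wild-type using edgeR 4.0.16 (R 4.3.3), TMM scaling, filterByExpr (minimum count 10, total 15), the quasi-likelihood test, and Benjamini-Hochberg adjustment over 16938 genes. SE and 95% intervals come from that fit. Alternatives used DESeq2 1.42.0, limma 3.58.1 (voom), other scalings and filters, length offsets, a replicate block, a Y-linked term and each library left out. The computation was tested on simulated data.

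Members and lists were chosen with earlier results of these data known. Full values are given for members with an unadjusted p under 0.05 and the 3 highest by TPM in each role. Members with separate groups, all effectors and targets, Dkk1 and Rspo1 were added after their values were seen. Other pathway genes are named at an unadjusted p under 0.05. Porcn, Wls, the further target genes and the examples of the destruction complex were named outside that rule. Per the labels' protocols the kit marks strand, but the strand setting of the counting is not given, so antisense exons may share reads with Wnt7b, Fzd5, Rspo3, Sfrp2, Notum, Ctnnb1, Lef1 and Axin2. Intervals assume these samples are independent.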

Additional observations from a re-analysis of the deposited data

How the results depend on the processing

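The number of members called higher was 0 with the quasi-likelihood test of edgeR and with both other scalings, both other filters, limma-voom, length offsets and the replicate block. It was 2 with DESeq2, 2 with the likelihood ratio test, 1 with the Y-linked term (Wnt10b), 1 at an FDR under 0.1 (Wnt10a), and 0 to 1 with a library left out. For members called lower it was 0 in each of these. For other pathway genes called higher it was 1 with DESeq2, the likelihood ratio test and the Y-linked term, and 0 to 1 with a library left out. Over all genes, 59 were higher and 14 lower. The higher count was 90 without a filter, 216 with DESeq2, 185 with the likelihood ratio test and 9 to 136 with a library left out. The lower count was 28 without a filter, 7 with the filter of 1 CPM, 85 with DESeq2, 4 with limma-voom, 75 with the likelihood ratio test, 4 with length offsets, 25 at an FDR under 0.1 and 1 to 70 with a library left out. With the replicate number as a block the lower count was 5. Same-numbered libraries deviated from their group means with correlations of -0.24, -0.09 and -0.16. Deviations within a small group are tied to each other, so these values cannot settle whether the numbers mark a pairing, which the labels do not state. The median log2 fold change of the members was -0.022 with library totals, -0.024 with length offsets, 0.056 with the Y-linked term and -0.017 to 0.045 with a library left out. The causes were not tested.

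Among 31 single genes and 496 alternative values, 461 kept direction and side of the threshold. A further 10 passed it, all of them values of Wnt10a, Wnt10b or Fzd6, and 25 changed sign, none above 0.164 in size. With the Y-linked term the sign changed for Axin2 (0.157), Lrp6 (0.164), Lgr4 (0.059) and Fzd2 (-0.033), with length offsets for Ctnnb1 (-0.08), and with library totals for Fzd1 (-0.017). It also changed with a library left out, where the log2 fold change ran from -0.005 to 0.307 for Wnt7b, -0.034 to 0.076 for Fzd1, -0.006 to 0.095 for Fzd2 and -0.127 to 0.013 for Lrp6. For the inhibitors it ran from -0.098 to 0.006 for Dkk2, -0.132 to 0.069 for Sfrp2 and -0.202 to 0.02 for Wif1. For effectors and targets it ran from -0.022 to 0.12 for Ctnnb1, -0.244 to 0.124 for Tcf7, -0.079 to 0.086 for Axin2, -0.136 to 0.098 for Nkd1 and -0.028 to 0.184 for Nkd2. With a sign that held, Rspo3 ran from -0.251 to -0.036 and Lef1 from -0.231 to -0.026 over the alternatives. Low counts limit Rspo4, Sfrp4 and Dkk4, which have the widest intervals among the inhibitors and R-spondins beside Rspo1.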
